A study of Mus musculus with 30 samples.

Results

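Salivary glands of control mice were compared between 24 and 8 weeks of age. The comparison used the 5 arrays labelled as control antibody at week 24 and the 5 labelled as control antibody at week 8, which are 10 of the 30 arrays of the study. The mice were females of the NOD.H-2h4 strain. Every control mouse had been injected once into the peritoneum at 4 weeks of age with 20 mg/kg of a human IgG1 isotype antibody, so the controls were antibody-treated and not untreated animals. Mice of the other arm had received an antibody against CD40L at the same age and dose. RNA of the whole gland was measured, and the labels call the arrays biological replicates without stating which animals or glands each one holds. No array of a disease-free strain was used here, so age and disease course cannot be told apart, and in whole tissue neither can more cells of a type and more RNA per cell.

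NOD.H-2h4 mice derive from the autoimmune NOD strain but carry a different MHC haplotype, and they spontaneously develop lymphocytic infiltrates of the salivary gland together with autoantibodies, which makes them a model of Sjögren's syndrome. In an infiltrated gland B and T cells gather around ducts and vessels, and B cells can mature into plasma cells that secrete antibody on site. Plasma cells that make IgA are also a normal part of the gland, whose epithelium carries polymeric IgA into saliva.

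Expression values are on a log2 scale, so a difference of 1 is a 2-fold change. Where the values of a group lie below the array medians (5.487 to 5.537), the size of a change is not exact. Of 12998 genes tested with limma, 1624 passed an adjusted p of 0.05 between week 8 and week 24 (12.5%), 1103 higher (8.49%) and 521 lower (4.01%) at week 24. A further scaling changed this split: quantile normalization gave 858 higher and 978 lower, which moved the share of higher calls from 67.9% to 46.7%. The median change over all genes was 0.051, and it was -0.027 after quantile normalization; the change was above 0 in 57.2% of genes. At an unadjusted p under 0.05 the share was 29.7%. In 447 genes (3.44%) the 5 week 24 arrays did not overlap the 5 week 8 arrays, with week 24 higher in 288 (2.22%) and lower in 159 (1.22%). These counts rest on a spread shared by all 30 arrays, and the groups compared here were more variable than the others: the median within-group SD was 0.258 at week 8 and 0.261 at week 24, against 0.134 to 0.216 in the other 4 groups. A fit of the 10 arrays alone called 41 genes (0.315%), of which 40 were also called in the model of all arrays, and a model with 1 weight per group called 113. Results below that held in the smaller fits are named as such. Every count of called list members below is to be read against the shares of all genes, 8.49% higher and 4.01% lower.

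The arrays were glandular RNA. The water channel Aqp5 averaged 11.52 at week 8 and 11.50 at week 24, the kallikrein Klk1 14.10 and 14.12, and the ductal keratin Krt18 11.95 and 12.03. Amy1, the amylase of the parotid gland, split the arrays: it was above 11 in week 8 replicates 2, 3 and 4 and in week 24 replicates 1 and 4, and between 6.575 and 9.513 in the other 5 arrays. Week 8 replicates 3 and 4 and week 24 replicate 1 had the lowest correlations with the rest of the series (0.9382, 0.9145 and 0.9353). The 3' minus 5' difference of control transcripts, which increases as RNA degrades, averaged 0.567 ± 0.198 at week 8 and 0.406 ± 0.121 at week 24 (SD, n = 5 each, two-sided exact permutation p = 0.159). With that difference as a covariate 434 genes were higher and 281 lower; its part in the results was not tested.

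Antibody genes made up most of the largest rises. Of the 15 genes with the largest increase, 9 were immunoglobulin genes and the others were Jchain, Mzb1, Ms4a1, H2-Ob, Ccl8 and Prg2. All 5 tested members of the list of immunoglobulin constant genes and J chain rose (median change 2.75, range 2.02 to 3.66), and 4 of them did not overlap between the ages.

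Igha, the heavy chain of IgA, measured 11.53, 11.38, 10.52, 10.07 and 9.76 in the week 8 arrays and 13.02, 13.40, 13.45, 13.60 and 13.54 at week 24. The lowest week 24 array was well above the highest week 8 array, and the change was 2.75 ± 0.27 (log2 ± SE, n = 5 per group, adjusted p = 1.66e-07), a 6.72-fold rise. Jchain, which joins IgA and IgM into polymers, measured 9.71, 10.09, 10.99, 9.95 and 8.29 at week 8 and 12.73, 12.55, 12.40, 12.36 and 12.79 at week 24, again without overlap, and rose by 2.76 ± 0.34 (adjusted p = 7.62e-06). Igkv8-30, a kappa light chain variable gene, rose by 2.74 ± 0.29 (adjusted p = 7.83e-07), and its 5 week 24 arrays lay between 12.63 and 13.08. The week 24 arrays were close to each other in all 3 genes, with SDs of 0.22, 0.19 and 0.21, while the week 8 arrays spread with SDs of 0.78, 0.98 and 0.88. All 3 kept their call in the 10-array fit (adjusted p = 0.00178, 0.00636 and 0.00355).

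Ighm, the heavy chain of IgM, measured 8.47, 8.97, 11.95, 8.49 and 7.64 at week 8 and 12.44, 13.28, 12.52, 12.19 and 13.39 at week 24. Week 8 replicate 3 was near the week 24 arrays, and the groups still did not overlap. The change was 3.66 ± 0.77 (adjusted p = 0.00387), a 12.6-fold rise, with an adjusted p of 0.0312 in the 10-array fit and 0.118 with group weights. Ighg3, the IgG3 heavy chain, measured 6.01, 6.62, 7.81, 6.11 and 6.56 at week 8 and 8.55, 10.28, 7.61, 7.16 and 9.80 at week 24. Week 24 replicates 2 and 5 were highest and replicates 3 and 4 lay below the highest week 8 array. It rose by 2.06 ± 0.41 (adjusted p = 0.00258, and 0.121 in the 10-array fit); 1 of its 3 other probe sets went the opposite way, at -0.12.

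Light chain variable genes had the largest fitted increases among the genes tested. Igkv6-14 measured 4.00, 4.09, 4.88, 3.99 and 3.96 at week 8, near the floor of the arrays, and 8.04, 9.46, 7.82, 7.95 and 8.99 at week 24, a rise of 4.27 ± 0.45 (adjusted p = 7.08e-07) whose size is not exact because the week 8 values lie so low. Igkv6-20 rose by 4.07 ± 0.53 (adjusted p = 2.07e-05), from 3.76 to 5.82 at week 8 to 7.73 to 10.03 at week 24. The lambda gene Iglv1 rose by 3.07 ± 0.49 (adjusted p = 0.000374). None of the 3 overlapped between the ages, and all 3 kept their call in the 10-array fit (adjusted p = 4.19e-05, 0.00263 and 0.0486). Variable genes have near-identical copies, so a probe set can read relatives of the gene it is named for.

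Plasma cell genes moved unevenly. Of 13 tested, 5 rose, none fell, and the list median was 0.43. Mzb1, an endoplasmic reticulum chaperone of antibody-secreting cells, measured 7.11, 7.80, 8.88, 7.33 and 6.66 at week 8 and 10.61, 10.66, 9.90, 9.56 and 10.72 at week 24. The groups did not overlap, and the change was 2.73 ± 0.34 (adjusted p = 1.15e-05, 0.00649 in the 10-array fit). Tnfrsf13b, which encodes the BAFF and APRIL receptor TACI, was tightly grouped at week 8 (4.86, 4.83, 4.79, 4.97 and 5.07) and higher in every week 24 array (6.90, 7.22, 6.33, 6.23 and 6.68). It rose by 1.77 ± 0.21 (adjusted p = 3.47e-06, 0.000708 in the 10-array fit). Tnfrsf17, the plasma cell receptor BCMA, rose by 1.15 ± 0.21 (adjusted p = 0.00115) and Irf4, a transcription factor of plasma cell differentiation, by 0.84 ± 0.21 (adjusted p = 0.0108). Both missed the threshold in the 10-array fit, at 0.0578 and 0.127. Without week 8 replicate 1 or week 24 replicate 1 the count of members that rose was 9.

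**Figure D1:**
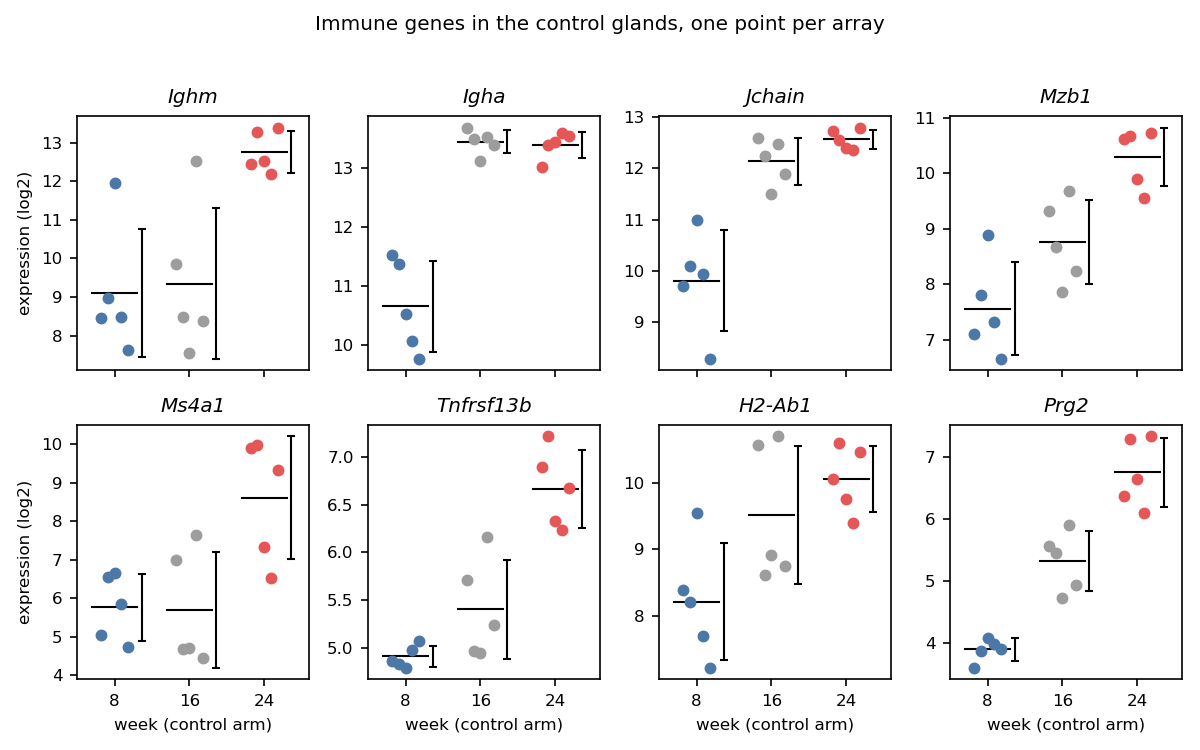
Expression (log2) of 8 immune genes in each control array at weeks 8, 16 and 24, with the mean of 5 arrays as a line and the SD as a bar. Igha lay between 13.13 and 13.69 in the week 16 arrays, whereas Ighm and Ms4a1 averaged 9.35 and 5.70 at week 16 and 12.76 and 8.61 at week 24.

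Genes of B cells rose in 12 of 17 tested members (median 0.92) and fell in none. Without the filter on low values 14 of 23 were called higher (median 0.72). Ms4a1, which encodes CD20, measured 5.05, 6.55, 6.64, 5.85 and 4.72 at week 8 and 9.90, 9.97, 7.33, 6.51 and 9.33 at week 24. Replicates 1, 2 and 5 were far above week 8, while replicate 4 lay within the week 8 range. It rose by 2.84 ± 0.58 (adjusted p = 0.00337, 7.18-fold). Cd79b, which signals for the B cell receptor, measured 5.07, 6.12, 5.52, 4.97 and 4.59 at week 8 and 7.98, 8.74, 6.63, 6.29 and 7.92 at week 24, without overlap, and rose by 2.26 ± 0.36 (adjusted p = 0.000309).

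The inhibitory receptor gene Btla rose by 1.92 ± 0.37 (adjusted p = 0.00202) and Bank1, an adaptor of B cell receptor signalling, by 1.65 ± 0.36 (adjusted p = 0.00516). The same 3 week 24 arrays were high in both: Bank1 measured 7.11, 8.00 and 7.13 in replicates 1, 2 and 5 and 5.20 and 5.16 in replicates 3 and 4, against 4.51 to 5.04 at week 8. The mean of the B cell members was 6.76, 7.43, 6.27, 6.10 and 7.12 in the week 24 arrays and 5.53 to 5.90 at week 8, so that each week 24 array was above each week 8 array. In the 10-array fit 1 member was called and Ms4a1, Cd79b, Btla and Bank1 had adjusted p = 0.0902, 0.0578, 0.0959 and 0.13. Cr2, the receptor of follicular dendritic and mature B cells, was under the filter and not tested; it measured 4.36 to 4.78 at week 8 and 4.48 to 5.38 at week 24. The germinal centre list had 3 tested members, Bcl6, S1pr2 and Icos, and none passed with limma (1 had an unadjusted p under 0.05): S1pr2 changed by -0.16 ± 0.13 and Icos, a costimulator of follicular helper T cells, by 0.28 ± 0.13.

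T cell genes rose in 6 of 15 tested members (median 0.58), against 8.49% of all genes that were higher, and fell in none. Cd3g, a subunit of the T cell receptor complex, measured 3.88, 5.45, 5.97, 3.62 and 3.88 at week 8 and 7.73, 7.74, 5.48, 5.21 and 7.23 at week 24. As in the B cell genes, replicates 1, 2 and 5 were high and replicates 3 and 4 overlapped week 8. It rose by 2.11 ± 0.54 (adjusted p = 0.012). Cd3d rose by 1.71 ± 0.46 (adjusted p = 0.0169), Ms4a4b, a membrane protein of T cells, by 2.23 ± 0.59 (adjusted p = 0.0153) and the adhesion receptor Cd2 by 1.57 ± 0.35 (adjusted p = 0.00594). Cd3e, another subunit of the receptor complex, averaged 6.85 and 6.91 and did not pass (adjusted p = 0.887). No T cell member was called in the 10-array fit, and without week 24 replicate 2 the count was 3. Cd3d and Ms4a4b then had adjusted p = 0.0677 and 0.0624, and both also lost their call without week 8 replicate 4.

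Among 9 tested genes of cytotoxic T and NK cells 2 rose, against 8.49% of all genes that were higher. Without the filter on low values 2 of 16 genes of these cells were called higher (median 0.4). Ccl5, a chemokine that these cells release, measured 7.21, 7.77, 8.32, 6.53 and 6.82 at week 8 and 8.48, 9.42, 8.32, 7.79 and 8.93 at week 24, and rose by 1.26 ± 0.36 (adjusted p = 0.0242). Ctsw, a protease of cytotoxic cells, rose by 0.99 ± 0.29 (adjusted p = 0.0267). Week 8 replicate 3 had the highest list level of its group, 6.96 against 5.42 to 5.89, within the week 24 range of 5.97 to 7.08. Neither gene held its call without week 8 replicate 4 or 5 or week 24 replicate 2 or 5 (highest adjusted p = 0.0939 and 0.106), and without week 8 replicate 3 the list count was 5. Ptprc, which encodes the pan-leukocyte receptor CD45 and was chosen after its values were seen, gave one measure of all white blood cells: 7.21, 7.71, 9.36, 6.43 and 5.89 at week 8 and 10.13, 10.56, 8.90, 8.13 and 10.40 at week 24, a rise of 2.30 ± 0.51 (adjusted p = 0.00517).

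Chemokines and vessel genes that organise lymphoid tissue rose in 3 of 7 tested members (median 0.61), against 8.49% of all genes that were higher. Without the filter on low values 2 of 12 members were called higher, and the median was 0.18. Cxcl13, which attracts B cells into follicles, measured 7.03, 7.44, 7.95, 7.05 and 6.72 at week 8 and 8.82, 9.29, 8.07, 7.29 and 8.82 at week 24, and rose by 1.22 ± 0.38 (adjusted p = 0.0352). Ltb, which encodes lymphotoxin beta, rose by 1.20 ± 0.39 (adjusted p = 0.0447), and Cxcl12, a chemokine that retains plasma cells, by 0.61 ± 0.17 (adjusted p = 0.0172). Cxcl12 changed by -0.28 as the median over its probe sets. Without week 24 replicate 2 or week 8 replicate 5 none of these members was called, and without week 8 replicate 4 or week 24 replicate 5, or after quantile normalization, 1 was.

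Glycam1, a product of high endothelial venules, was on in single arrays of both ages. It measured 8.91 in week 8 replicate 2 and 4.17 to 4.63 in the other week 8 arrays, and 8.33 and 7.95 in week 24 replicates 1 and 2 and 4.60 to 5.33 in the others. Madcam1, another gene of high endothelium, stayed between 4.98 and 5.86 at week 8 and between 5.15 and 5.59 at week 24. The arrays high in Glycam1 include 2 of the 3 week 24 arrays highest in Ms4a1, and the part of lymph node tissue in the B and T cell rises was not tested.

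Of the target pair of the study, Cd40lg was under the filter, at 4.75 to 5.10 at week 8 and 4.46 to 5.06 at week 24, and was not tested. Cd40, its receptor on antigen-presenting cells, measured 6.31 to 6.87 at week 8 and 6.36 to 7.11 at week 24 and did not pass (-0.02 ± 0.16, adjusted p = 0.933). Of the 11 tested genes of CD40 signalling and its NF-kB targets 5 rose, against 8.49% of all genes that were higher, and none fell (median 0.55). Tnfaip3, the NF-kB feedback inhibitor A20, measured 6.72, 6.59, 6.53, 6.68 and 6.41 at week 8 and 7.14, 7.31, 6.93, 7.05 and 7.48 at week 24, without overlap. It rose by 0.60 ± 0.12 (adjusted p = 0.00314), while its 1 other probe set changed by -0.36. Cd83, an activation marker of B and dendritic cells, rose by 1.16 ± 0.32 (adjusted p = 0.0177), the inhibitor of apoptosis Birc3 by 0.59 ± 0.15 (adjusted p = 0.0121) and the NF-kB subunit Relb by 0.57 ± 0.17 (adjusted p = 0.0247). Without week 24 replicate 2 only 2 members were called, and Cd83, Birc3 and Relb had adjusted p = 0.0753, 0.0542 and 0.105; without week 8 replicate 5 there were 3.

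All 10 tested genes of MHC class II presentation rose (median 1.46, range 0.75 to 2.64). Class II molecules present peptides to helper T cells, and their genes share a promoter module that ends in an inverted CCAAT box. The inverted box, TGATTGG, was searched on both strands in the RefSeq promoters of build GRCm38.p6, each running from 250 bases before to 50 after the gene start. It was found in 5 of the 7 promoters that could be matched to class II members, and in 7.82% of all 32851 promoters of that length. Shown are stretches from 3 of these promoters, all of which belong to genes that rose, with the box in capitals; they are the C57BL/6J reference, not the NOD.H-2h4 haplotype.
H2-Aa: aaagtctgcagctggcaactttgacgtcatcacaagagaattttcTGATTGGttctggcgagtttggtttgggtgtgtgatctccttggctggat
H2-Eb1: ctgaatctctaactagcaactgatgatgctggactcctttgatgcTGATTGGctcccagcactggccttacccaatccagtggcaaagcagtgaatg
H2-Ob: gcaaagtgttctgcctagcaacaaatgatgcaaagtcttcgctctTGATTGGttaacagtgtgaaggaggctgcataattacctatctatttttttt

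The 3 stretches lie at chr17:34287824-34287918 on the minus strand for H2-Aa, at chr17:34305761-34305857 on the plus strand for H2-Eb1 and at chr17:34238801-34238897 on the plus strand for H2-Ob. Their boxes start 50, 61 and 59 bases before the gene start. A match of letters is a description and not evidence of binding.

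H2-Ab1, a class II beta chain, measured 8.38, 8.21, 9.55, 7.69 and 7.22 at week 8 and 10.06, 10.60, 9.75, 9.40 and 10.47 at week 24. The only overlap was between week 8 replicate 3 and week 24 replicate 4, and the gene rose by 1.84 ± 0.41 (adjusted p = 0.00572, 3.59-fold). H2-Eb1 rose by 1.77 ± 0.42 (adjusted p = 0.00772), and H2-Aa, chosen after its values were seen, by 1.5 (adjusted p = 0.0122).

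Cd74, the invariant chain that guides class II molecules to endosomes, measured 9.95, 9.85, 10.14, 8.15 and 8.91 at week 8 and 10.37, 11.72, 10.82, 10.74 and 11.74 at week 24, without overlap, a rise of 1.68 ± 0.38 (adjusted p = 0.00655). H2-Ob, a B cell inhibitor of peptide loading, measured 7.30, 8.08 and 7.33 in week 24 replicates 1, 2 and 5 and 4.72 and 4.29 in replicates 3 and 4, against 3.42 to 4.39 at week 8. Its rise of 2.64 ± 0.55 (adjusted p = 0.00356) therefore came mainly from the 3 arrays that were high in Ms4a1 and Bank1, whereas Cd74 in all 5 week 24 arrays, and H2-Ab1 in 4 of them, lay above the week 8 range. The class II count stayed at 10 of 10 in quantile normalization and was at least 8 without any 1 array. In the 10-array fit and with group weights it was 0, and the 10-array fit gave adjusted p = 0.0687 for H2-Ab1, 0.0902 for Cd74 and 0.0967 for H2-Ob.

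Genes of MHC class I and the immunoproteasome rose in 7 of 14 tested members (median 0.58), and the change was above 0 in all 14. B2m, the light chain shared by class I molecules, measured 12.52, 12.70, 12.77, 12.10 and 12.17 at week 8 and 13.01, 13.28, 12.93, 13.06 and 13.28 at week 24. The groups did not overlap, and the rise was 0.66 ± 0.17 (adjusted p = 0.0117). Pdia3, a chaperone of class I assembly, rose by 0.58 ± 0.12 (adjusted p = 0.00414) and Psmb8, a catalytic subunit of the immunoproteasome, by 1.15 ± 0.38 (adjusted p = 0.0443). Psmb8 lost its call without any 1 of week 8 replicates 2, 4 and 5 and week 24 replicates 2, 3 and 5 (highest adjusted p = 0.117). H2-D1, a class I heavy chain that is among the 7, changed by 0.53 ± 0.12 (adjusted p = 0.00685) on its brightest probe set, but 4 of its 8 other probe sets went down, and the median over probe sets fell by 0.45 (adjusted p = 0.0167), so no direction is given for this gene.

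Interferon gamma response genes were all above 0 in their change (15 of 15 tested, median 0.84), and 4 of them rose, against 8.49% of all genes. Iigp1, an interferon-inducible GTPase, measured 6.33, 6.25, 9.14, 5.77 and 5.56 at week 8 and 8.89, 8.92, 7.77, 7.35 and 9.44 at week 24. Week 8 replicate 3 exceeded 4 of the 5 week 24 arrays, and the rise was 1.86 ± 0.57 (adjusted p = 0.0317). The related GTPase Irgm2 rose by 1.46 ± 0.46 (adjusted p = 0.0354), the signalling inhibitor Socs3 by 1.46 ± 0.38 (adjusted p = 0.014) and the guanylate-binding protein gene Gbp7 by 0.75 ± 0.24 (adjusted p = 0.0439). The count depended on single arrays. It was 11 without week 8 replicate 3, which had a list level of 7.96 against 5.99 to 6.49 in the other week 8 arrays, and 0 without week 8 replicate 4 or week 24 replicate 2. It was 7 without week 8 replicate 1 or week 24 replicate 4, 8 without week 24 replicate 1, and 1 without week 8 replicate 2 or 5 or week 24 replicate 5.

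**Figure D2:**
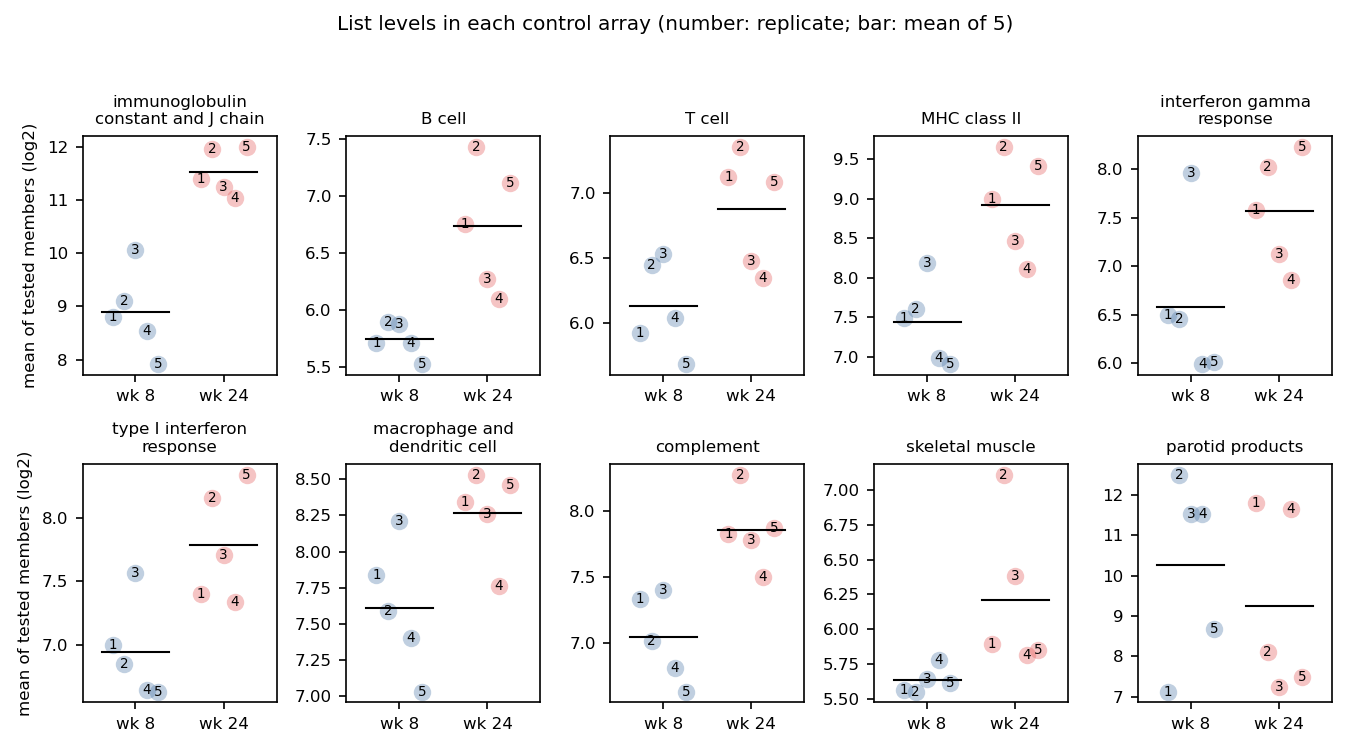
Mean log2 level of the tested members of 10 gene lists in each control array; the number is the replicate and the bar the mean of 5 arrays. The B cell list was highest in week 24 replicates 2, 5 and 1 (7.43, 7.12 and 6.76), the interferon gamma list of week 8 replicate 3 (7.96) lay within the week 24 range, and the parotid list split the arrays of both ages.

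Type I interferon response genes were also all above 0 (23 of 23, median 0.64), and 7 rose, against 8.49% of all genes. Type I interferons act through a response element whose letters, GAAA followed by any 2 bases and GAAA, were searched on both strands as above. They were found in 10 of the 16 promoters that matched a member, against 3.44% of all promoters. Of the 5 matched members that rose 3 had the element, and the other promoters with it belong to members that did not pass. Shown are stretches of 3 members that rose, with the element in capitals; in Ifit1 and Ifit3 it lies on the opposite strand and reads as TTTC, 2 bases and TTTC, and in Oas1a the 2 matches overlap.
Ifit1: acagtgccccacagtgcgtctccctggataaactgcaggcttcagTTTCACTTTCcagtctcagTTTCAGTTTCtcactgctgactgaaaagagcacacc
Ifit3: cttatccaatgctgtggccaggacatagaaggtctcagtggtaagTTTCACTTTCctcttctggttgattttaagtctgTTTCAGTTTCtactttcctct
Oas1a: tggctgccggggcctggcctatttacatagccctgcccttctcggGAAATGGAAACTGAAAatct

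They lie at chr19:34640740-34640839 (plus strand), chr19:34583328-34583427 (plus strand) and chr5:120907526-120907590 (minus strand), and the first match starts 104, 156 and 20 bases before the gene start. Ifit1, which binds foreign RNA, measured 6.51, 5.55, 7.16, 5.07 and 5.29 at week 8 and 7.40, 8.65, 7.87, 6.97 and 9.13 at week 24. Only week 24 replicate 4 fell below a week 8 array, and Ifit1 rose by 2.09 ± 0.51 (adjusted p = 0.00913, 4.25-fold). Ifit3 and Oas1a, chosen for their promoters after their values were seen, rose by 1.36 and 1.45 (adjusted p = 0.0172 and 0.00305).

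Oasl2, a relative of the antiviral oligoadenylate synthetases, measured 4.71 in week 24 replicate 1, inside the week 8 range of 3.77 to 4.85, and 7.87, 6.18, 5.89 and 7.84 in the other 4 arrays. Its change was 2.08 ± 0.60 (adjusted p = 0.0235). Usp18, which removes the ubiquitin-like protein ISG15, rose by 1.73 ± 0.55 (adjusted p = 0.0392) and the chaperone Rtp4 by 1.5 ± 0.49 (adjusted p = 0.045). Ifit1 kept its call without any 1 array; Oasl2 lost it without 3 arrays and Usp18 and Rtp4 each without 6 (highest adjusted p = 0.0915, 0.113 and 0.14). The list count was 13 without week 24 replicate 1 and 11 without week 8 replicate 3, and it was 2 without week 8 replicate 4, week 24 replicate 2 or week 24 replicate 5 and 4 without week 8 replicate 2. With the 3' minus 5' covariate it was 2. No member of either interferon list was called in the 10-array fit or with group weights.

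Macrophage and dendritic cell genes rose in 9 of 20 tested members, with all 20 above 0 (median 0.77). Laptm5, a lysosomal protein of leukocytes, rose by 1.17 ± 0.33 (adjusted p = 0.0222), though 2 of its 4 other probe sets went down. Mpeg1, a pore-forming protein of macrophages, measured 8.30, 8.26, 9.53, 7.93 and 7.75 at week 8 and 9.60, 9.94, 9.34, 8.55 and 10.02 at week 24. Week 8 replicate 3 was within the week 24 range, and the rise was 1.14 ± 0.31 (adjusted p = 0.0167). The fungal receptor gene Clec7a rose by 1.04 ± 0.32 (adjusted p = 0.0321) and the complement component C1qb, a product of macrophages, by 1.02 ± 0.29 (adjusted p = 0.0242). The macrophage receptors Csf1r and Adgre1 did not pass (0.30 and 0.40, adjusted p = 0.351 and 0.0689). Without week 8 replicate 4 or week 24 replicate 2 only 1 member was called; the count was 3, 4, 5 and 5 without week 24 replicate 5, week 8 replicate 5, week 24 replicate 3 and week 8 replicate 2.

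Ccl8, a chemokine for monocytes, eosinophils and T cells, was among the 15 largest rises. It measured 7.52, 7.69, 10.15, 7.89 and 6.30 at week 8 and 10.98, 10.56, 10.60, 8.65 and 10.81 at week 24. Week 8 replicate 3 and week 24 replicate 4 each stood apart from their group, and the rise was 2.41 ± 0.57 (adjusted p = 0.0083).

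Prg2, which encodes the major basic protein of eosinophil granules, had the lowest adjusted p of all named genes. It measured 3.61, 3.88, 4.09, 3.99 and 3.91 at week 8 and 6.37, 7.29, 6.65, 6.10 and 7.33 at week 24. The lowest week 24 array was far above the highest week 8 array, and the rise was 2.85 ± 0.22 (adjusted p = 3.02e-09, 8.78e-05 in the 10-array fit). The week 8 values lie near the floor of the arrays, so the size of the rise is not exact. It was the only called member among 5 tested genes of mast cells and eosinophils, whose median change was 0.13. The other tested members are mast cell genes. The eosinophil genes Epx and Siglecf were under the filter, so Prg2 was the only eosinophil gene of the list that was tested. None of the 9 tested neutrophil and antimicrobial genes passed with limma, nor did any reach an unadjusted p of 0.05: Ltf, which encodes lactoferrin, changed by 0.99 ± 0.88 and Lcn2, a siderophore-binding protein, by 0.79 ± 0.50.

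Complement genes rose in 7 of 8 tested members (median 0.84) and fell in none. C1s1, the protease of the first complement complex, measured 8.11, 7.72, 8.89, 6.78 and 6.47 at week 8 and 9.11, 9.95, 9.13, 8.77 and 9.80 at week 24. Only week 24 replicate 4 was below the highest week 8 array. The rise was 1.76 ± 0.34 (adjusted p = 0.0021, 3.38-fold), and its partner C1ra rose by 1.0 ± 0.23 (adjusted p = 0.00691). Cfp, the stabiliser of the alternative pathway, rose by 0.88 ± 0.19 (adjusted p = 0.00415) without overlap, although its 1 other probe set changed by -0.41. The membrane inhibitor Cd55 rose by 0.93 ± 0.28 (adjusted p = 0.0295). In the 10-array fit, with group weights and with Amy1 above 11 no complement member was called. Without week 24 replicate 2 the count was 4, and Cd55 then had an adjusted p of 0.125. Of 5 tested genes of Sjögren autoantigens 1 rose, Trim21, which encodes the Ro52 antigen (0.80 ± 0.22, adjusted p = 0.0173). With so few members, 1 call does not stand apart from the 8.49% of all genes that were higher. Trim21 lost its call without week 8 replicate 4 or 5 or week 24 replicate 2 (highest adjusted p = 0.0651).

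**Figure D3:**
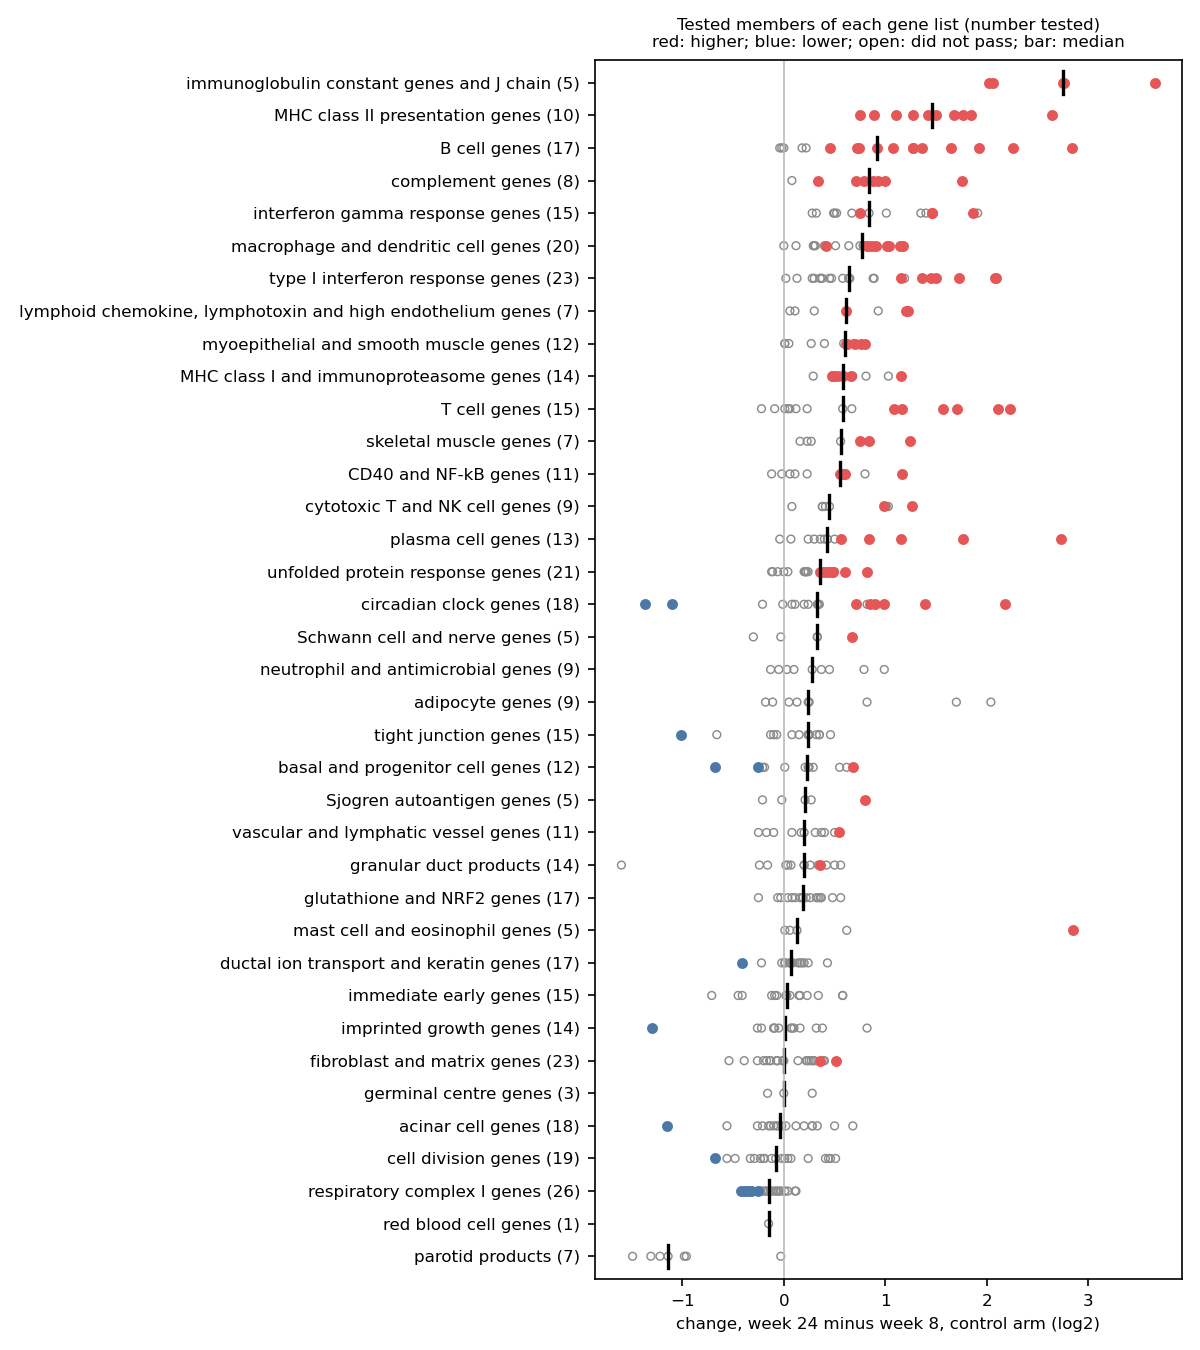
Change from week 8 to week 24 (log2) of every tested member of the 37 gene lists, 462 genes of 631 listed; red (higher) and blue (lower) points passed an adjusted p of 0.05, open points did not, and bars are list medians. Of the tested members 110 were called higher and 15 lower. The lists are ordered by median, from 2.75 for immunoglobulin constant genes and J chain to -1.14 for parotid products.

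With the 3' minus 5' difference as a covariate fewer members rose in several lists: 3 for class I, 1 for interferon gamma, 2 for type I interferon, 5 each for macrophages and complement, 0 for cytotoxic cells, 1 for lymphoid chemokines, 3 for CD40 and NF-kB, 1 each for contractile and skeletal muscle genes, 0 for fibroblasts and 3 for the clock. Among the Sjögren autoantigens none was then higher and 1 was lower. List medians also differed with Amy1: in arrays with Amy1 above 11 and below 11 they were 0.18 and 0.87 for T cells, 0.29 and 0.92 for cytotoxic cells, 0.55 and 1.05 for B cells and 0.25 and 1.0 for lymphoid chemokines. They were 0.93 and 2.01 for class II, 0.53 and 1.33 for interferon gamma, 0.29 and 0.94 for type I interferon and 0.38 and 1.08 for macrophages. Above 11 were week 8 replicates 2, 3 and 4 and week 24 replicates 1 and 4, and the other 5 arrays were below. Week 8 replicate 3, highest of its age in the interferon gamma list (7.96), was thus above 11. Week 24 replicates 2 and 5, highest in the B cell list (7.43 and 7.12), were below 11. With so few arrays, Amy1 and single arrays cannot be told apart. The part of tissue makeup in these rises was not tested. No member was called higher in the 10-array fit, with group weights or with Amy1 above 11 in the lists of T cells, cytotoxic cells, lymphoid chemokines, class II, both interferon responses, macrophages, complement, contractile, skeletal muscle or fibroblast genes. For class I, CD40 and NF-kB, and the unfolded protein response these counts were 0, 1 and 0. Most gland lists lay near the median of all genes. Of 18 tested acinar genes 1 passed, and that gene fell, a share near the 4.01% of all genes that were lower. Without week 24 replicate 1 there were 3 higher and 1 lower. Smgc, which encodes a mucin-like product of the submandibular gland that is abundant in young mice, measured 12.49, 12.67, 12.75, 12.75 and 12.68 at week 8 and 11.67, 11.29, 11.32, 11.29 and 12.01 at week 24. The groups were separate, and Smgc fell by 1.15 ± 0.15 (adjusted p = 2.36e-05, 0.00631 in the 10-array fit). Bhlha15, a transcription factor of secretory cells, changed by -0.21 and Pigr, the epithelial receptor that exports polymeric IgA, by 0.18; neither passed.

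The largest fall of all genes was that of 5530400C23Rik, a transcript without an established function. It measured 9.72, 9.05, 9.62, 10.18 and 9.64 at week 8 and 4.25, 3.72, 4.31, 4.04 and 4.89 at week 24. All 5 week 24 arrays were at 4.89 or below, under the array medians of 5.487 to 5.537, so the size of the fall is not exact (-5.40 ± 0.48, adjusted p = 5.22e-08, 2.32e-07 in the 10-array fit). The other 14 largest falls were between 1.03 and 1.37. Among them 2210409D07Rik fell by 1.11 ± 0.17 (adjusted p = 0.000167), Stpg3 by 1.04 ± 0.17 (adjusted p = 0.000616), and Smim38 by 1.07 ± 0.20 (adjusted p = 0.00176), all without overlap. Ttpa, the vitamin E transfer protein, fell by 1.21 ± 0.24 (adjusted p = 0.00277), with week 24 replicate 1 at 10.25 and the other 4 arrays at 8.30 to 8.91.

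In that group of falls 9530002B09Rik (-1.25 ± 0.30), Dleu7 (-1.24 ± 0.31) and the retinol-binding protein gene Rbp7 (-1.04 ± 0.27) also had week 24 replicate 1 highest, at 9.25, 7.79 and 8.95. Rap1gapos fell by 1.03 ± 0.21 (adjusted p = 0.00356), and Ptn, the growth factor pleiotrophin, fell by 1.04 ± 0.33 (adjusted p = 0.0392), which missed the threshold without 7 single arrays (highest adjusted p = 0.0979). Map4, a microtubule-associated protein, fell by 1.34 ± 0.27 (adjusted p = 0.00307, 0.0312 in the 10-array fit), while 3 of its 4 other probe sets went up, by at most 0.32.

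Slpi, a secreted protease inhibitor of mucosal surfaces that was chosen after its values were seen, rose in every array. It measured 8.14, 8.88, 9.06, 8.78 and 8.09 at week 8 and 10.74, 10.66, 10.88, 10.84 and 10.95 at week 24, a rise of 2.23 ± 0.27 (adjusted p = 7.62e-06, 0.000145 in the 10-array fit). The week 24 arrays differed by an SD of 0.12. Further genes without overlap were chosen in the same way, with their values known, so the lack of overlap is no added support. Among all genes tested, 447 (3.44%) did not overlap. St6gal1, which adds sialic acid to glycoproteins including antibodies, measured 6.39 to 7.21 at week 8 and 8.03 to 9.01 at week 24 and rose by 1.73 ± 0.20 (adjusted p = 2.29e-06). Coch, an extracellular matrix protein, rose by 1.18 ± 0.14 (adjusted p = 6e-06), Nr3c1, the glucocorticoid receptor, by 0.78 ± 0.10 (adjusted p = 1.65e-05) and Epsti1, an interferon-inducible gene, by 1.55 ± 0.25 (adjusted p = 0.000395). The last 4 also passed in the 10-array fit, at 0.00465, 0.0101, 0.023 and 0.0295.

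**Figure D4:**
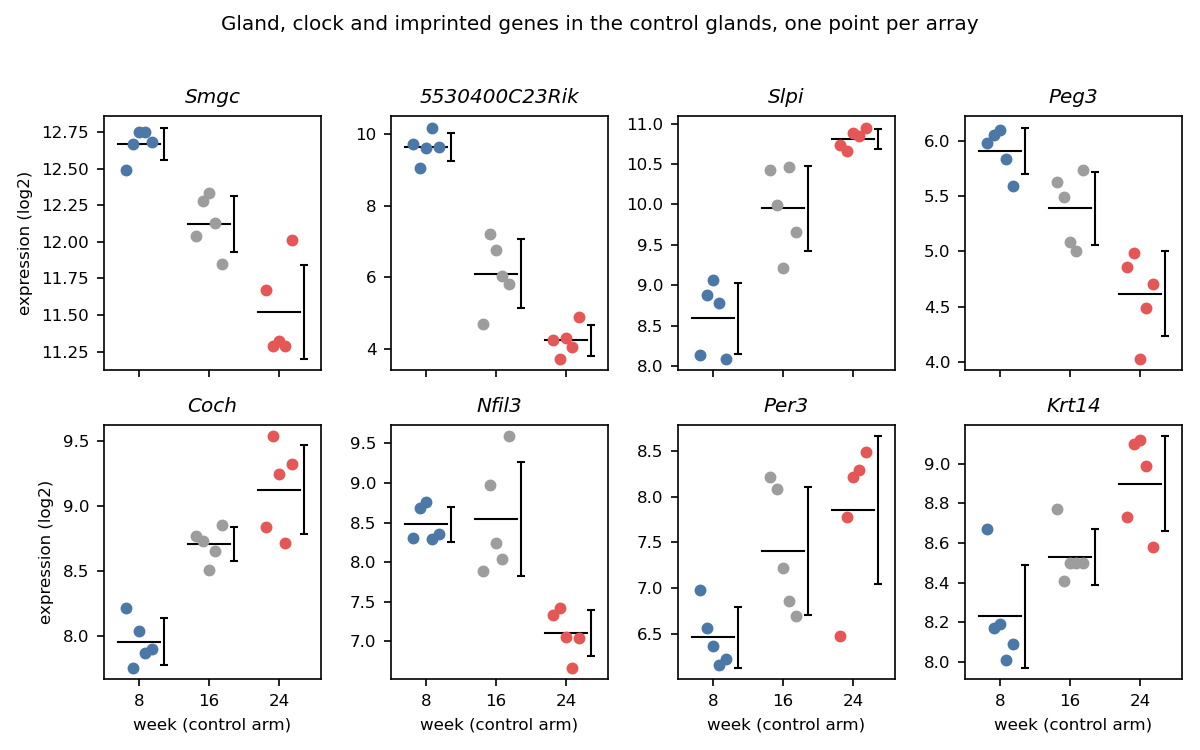
Expression (log2) of 8 gland, clock and imprinted genes in each control array at weeks 8, 16 and 24, with the mean of 5 arrays as a line and the SD as a bar. Smgc, 5530400C23Rik and Peg3 had lower means at each later age (12.67, 12.12 and 11.52 for Smgc), and Slpi and Coch higher ones.

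Of 14 granular duct products 1 rose, the kallikrein Klk1b16, from 12.78 to 13.19 at week 8 to 13.27 to 13.46 at week 24 (0.36 ± 0.11, adjusted p = 0.0269), a share near the 8.49% of all genes. The count was 7 without week 8 replicate 1 and 6 without week 24 replicate 1, and 0 without week 8 replicate 4 or week 24 replicate 2, 3 or 5; without week 8 replicate 5 and week 24 replicate 4 it was 2 and 3. The 7 parotid products were all below 0 (median -1.14) and none passed with limma, also at an unadjusted p of 0.05. Bpifb1 measured 6.18, 13.48, 12.59, 12.62 and 7.70 at week 8 and 12.81, 6.41, 6.28, 13.78 and 5.84 at week 24, following Amy1 in each array. Its change was -1.49 ± 1.72 and that of the chitinase gene Chia1 -1.31 ± 1.97, and both turned positive with the 3' minus 5' covariate (0.50 and 1.11). In the arrays with Amy1 above 11 alone Bpifb1 and Chia1 changed by 0.40 and 0.10.

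Of 17 ductal transport and keratin genes 1 fell, the anion exchanger Slc26a4 (-0.41 ± 0.14, adjusted p = 0.0475), and of 15 tight junction genes 1, the claudin Cldn1 (-1.01 ± 0.32, adjusted p = 0.0383). These shares are near the 4.01% of all genes that were lower. Cldn1 measured 7.44, 7.54, 7.57, 6.34 and 7.54 at week 8 and 6.83, 6.63, 6.09, 5.82 and 6.0 at week 24. Only week 8 replicate 4 was inside the week 24 range. Both lost their call without 7 of the 10 single arrays (highest adjusted p = 0.176 and 0.088). Of 12 basal and progenitor genes 1 rose and 2 fell, against 12.5% of all genes in either direction. Krt14, a keratin of basal and myoepithelial cells, rose by 0.68 ± 0.13 (adjusted p = 0.00182), with 1 of 2 other probe sets at -0.32. Krt15, another basal keratin, fell by 0.68 ± 0.21 (adjusted p = 0.0318), a call lost without 5 single arrays (highest adjusted p = 0.0908). The growth factor receptor gene Egfr fell by 0.25 ± 0.07 (adjusted p = 0.0163) on its brightest probe set and changed by 0.15 as the median over its probe sets.

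Contractile genes rose in 5 of 12 tested members, with all 12 above 0 (median 0.60). Myoepithelial cells use the smooth muscle machinery to squeeze saliva out of the acini. Smtn, which encodes smoothelin, measured 5.90, 5.60, 5.06, 5.03 and 5.87 at week 8 and 5.42, 6.88, 6.33, 6.54 and 6.27 at week 24, with only replicate 1 in the week 8 range, and rose by 0.80 ± 0.22 (adjusted p = 0.0209). Calponin Cnn1 rose by 0.76 ± 0.23 (adjusted p = 0.0293), the myosin kinase Mylk by 0.70 ± 0.19 (adjusted p = 0.0172) and the light chain Myl9 by 0.62 ± 0.21 (adjusted p = 0.047). Counts were 8 without week 24 replicate 1, 1 without week 8 replicate 4 or week 24 replicate 2, and 3 without week 8 replicate 2 or 3 or week 24 replicate 3 or 4. Single arrays ended the calls of Smtn, Cnn1, Mylk and Myl9 (highest adjusted p = 0.086, 0.125, 0.0723 and 0.184).

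Among 23 fibroblast and matrix genes 2 rose, the matrix proteins periostin (Postn, 0.51 ± 0.16, adjusted p = 0.0333) and decorin (Dcn, 0.36 ± 0.10, adjusted p = 0.0235), and the list median was 0.00. That count is near the 8.49% of all genes that were higher. Postn measured 9.47 to 9.90 at week 8 and 10.06 to 10.46 at week 24. In each of the vascular (11 tested) and nerve (5 tested) lists 1 gene rose, for the vascular list again a share near that of all genes, the endothelial adhesion molecule Pecam1 (0.54 ± 0.18, adjusted p = 0.0485) and the neurotrophin receptor Ngfr (0.67 ± 0.20, adjusted p = 0.0317). These 4 calls were lost without 6, 4, 7 and 4 single arrays (highest adjusted p = 0.108, 0.0744, 0.201 and 0.139).

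Skeletal muscle genes rose in 3 of 7 tested members, and the list level was 5.55 to 5.78 at week 8 and 5.89, 7.11, 6.38, 5.81 and 5.85 at week 24 (two-sided exact permutation p = 0.00794, the smallest that 5 against 5 allows, adjusted p = 0.0397 over 5 quality measures). Acta1, skeletal muscle actin, measured 5.17 to 5.45 at week 8 and 5.67, 8.44, 7.04, 5.35 and 6.08 at week 24, and rose by 1.24 ± 0.40 (adjusted p = 0.0403). The list level averages only the 7 of 16 listed genes that passed the filter. Acta1 was under the array medians in every week 8 control, so it passed through other arrays. The permutation p-value is therefore not independent of how the members were admitted. Pvalb, a calcium buffer of fast fibres, rose by 0.84 ± 0.22 (adjusted p = 0.0135) and the myosin light chain gene Mylpf by 0.75 ± 0.21 (adjusted p = 0.021). Week 24 replicate 2 was highest in all 3, and without it none passed (adjusted p = 0.168, 0.0565 and 0.0892). Myh4, a defining myosin of fast muscle, was under the filter in both groups (3.64 to 4.29 and 3.89 to 4.10). Week 24 replicate 2 was also highest in Ms4a1, Cd3g, H2-Ab1 and Igkv6-14; the part of attached tissue in those rises was not tested. Of 9 adipocyte genes none passed with limma, also at an unadjusted p of 0.05: Car3 changed by 2.04 ± 1.24 and Adipoq, the adipocyte hormone adiponectin, by 1.70 ± 1.15, and the list level was 7.03 to 8.47 at week 8 and 7.45 to 8.95 at week 24. The tested red blood cell gene, Alas2, changed by -0.15 ± 0.18.

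Circadian clock genes moved in both directions: 6 of 18 tested rose and 2 fell. In the clock, Arntl drives transcription of Per3 and Dbp, Per3 feeds back on the clock, Dbp acts on output genes, and Nfil3 opposes Dbp at D boxes. Nfil3 measured 8.31, 8.68, 8.76, 8.29 and 8.35 at week 8 and 7.33, 7.42, 7.06, 6.67 and 7.04 at week 24. The arrays of the ages were separate, and Nfil3 fell by 1.37 ± 0.28 (adjusted p = 0.00347, 0.00263 in the 10-array fit, 0.0153 without the 5 arrays of lowest correlation). Arntl fell by 1.10 ± 0.31 (adjusted p = 0.0222); it measured 5.72 to 6.83 at week 8, 6.03 in week 24 replicate 1 and 5.02 to 5.26 in the other 4.

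Per3 measured 6.98, 6.56, 6.36, 6.16 and 6.22 at week 8 and 6.47, 7.78, 8.21, 8.29 and 8.49 at week 24, a rise of 1.39 ± 0.30 (adjusted p = 0.00469). Dbp measured 9.62, 8.28, 7.05, 7.71 and 9.19 at week 8 and 8.36, 11.03, 10.94, 10.99 and 11.41 at week 24, a rise of 2.18 ± 0.61 (adjusted p = 0.0207). In Arntl, Per3 and Dbp alike, week 24 replicate 1 lay inside the week 8 range while the other 4 were outside it. Dbp lost its call without week 8 replicate 3 or 4 or week 24 replicate 2 or 5 (highest adjusted p = 0.0652), and Arntl without week 8 replicate 2 or week 24 replicate 2 (0.0549). The hour of tissue collection was not given in the sources used here.

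Promoter stretches are shown for Nfil3, which fell, and Per3, which rose. A match of letters is a description and not evidence of binding, and its part in the changes was not tested. Of the 7 called clock members with a matched promoter, 2 had the ROR element and 1 the D box. The ROR element, TAGGTCA, was found in 2 of 16 matched clock promoters, those of Arntl and Nfil3, against 2.61% of all promoters, and the D box, TTATGTAA, in 1, that of Per3, against 0.938%. Capitals mark the element; in Nfil3 it lies on the opposite strand, 12 bases before the gene start, and in Per3 the first of 2 starts 205 bases before it.
Nfil3: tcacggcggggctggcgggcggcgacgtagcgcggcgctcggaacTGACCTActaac
Per3: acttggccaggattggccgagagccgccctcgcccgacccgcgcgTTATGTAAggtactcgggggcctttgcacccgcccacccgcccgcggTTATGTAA

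The stretches lie at chr13:52981040-52981096 and chr4:151044816-151044915, both on the minus strand of GRCm38.p6.

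Peg3, a paternally expressed zinc finger gene, was the 1 member of 14 imprinted growth genes that passed, against 4.01% of all genes that were lower. It measured 5.98, 6.05, 6.10, 5.84 and 5.59 at week 8 and 4.86, 4.99, 4.03, 4.49 and 4.71 at week 24, without overlap, and fell by 1.30 ± 0.19 (adjusted p = 0.000153, 0.00802 in the 10-array fit). The other 13 ranged on either side of 0 (list median 0.01). Of 19 cell division genes 1 fell, the mitotic activator Cdc20 (-0.68 ± 0.16, adjusted p = 0.0075), which changed by 0.07 as the median over its probe sets. The list median was -0.08, and 1 of 19 is near the 4.01% of all genes that were lower.

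Respiratory complex I genes fell in 6 of 26 tested members by small amounts (median -0.15), and none rose. Ndufa5 fell by 0.42 ± 0.10 (adjusted p = 0.00829), Ndufa2 by 0.39 ± 0.10 (adjusted p = 0.0104), Ndufs4 by 0.36 ± 0.11 (adjusted p = 0.0349) and Ndufb3 by 0.32 ± 0.08 (adjusted p = 0.0148). Ndufa2 measured 11.53 to 11.81 at week 8 and 11.03 to 11.39 at week 24, without overlap. With the 3' minus 5' covariate no member passed; without week 24 replicate 1 the count was 11, and without week 8 replicate 4 or week 24 replicate 2, 4 or 5 it was 3.

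Genes of the unfolded protein response, which cells with a high secretory load switch on, rose in 7 of 21 tested members (median 0.36) and fell in none. The disulfide isomerase Pdia4 measured 8.77, 8.05, 7.73, 7.40 and 8.03 at week 8 and 8.33, 9.04, 8.76, 9.11 and 8.83 at week 24, and rose by 0.82 ± 0.17 (adjusted p = 0.00383), with its 1 other probe set at -0.12. Pdia6 rose by 0.60 ± 0.14 (adjusted p = 0.00847), the chaperone Hyou1 by 0.48 ± 0.13 (adjusted p = 0.0153) and calreticulin (Calr) by 0.47 ± 0.11 (adjusted p = 0.00783). Hyou1 and Calr did not overlap between the ages. The count was 12 and 13 without week 8 replicate 1 and week 24 replicate 1, and 3 with the 3' minus 5' covariate. None of the 15 immediate early genes or the 17 glutathione and NRF2 genes passed with limma (2 and 5 at an unadjusted p under 0.05); Dusp1 changed by -0.71 ± 0.52, Ier3 by 0.58 ± 0.30, Gsta3 by 0.56 ± 0.24 and Gpx3 by 0.48 ± 0.18.

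The week 16 controls were set between the 2 ages. Of 12998 genes, 6046 (46.5%) passed between weeks 8 and 16 and 1609 (12.4%) between weeks 16 and 24. With the 3' minus 5' covariate these counts were 619 and 717. Their order thus depended on the covariate, so 6046 against 1609 cannot be read as more change before week 16. The 3 age comparisons share arrays, so their values are given side by side only. Week 16 arrays were the least variable and had 3' minus 5' differences of 0.228 to 0.378, against 0.359 to 0.859 at week 8 and 0.287 to 0.610 at week 24. Igha and Jchain were raised by week 16: Igha measured 13.13 to 13.69 at week 16 and Jchain 11.49 to 12.59, and the step from week 16 to week 24 did not pass (-0.05, adjusted p = 0.92, and 0.43, adjusted p = 0.398).

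Ighm, Ms4a1 and Ighg3 passed in the later interval and not in the earlier one. Over the 5 tested constant genes and J chain together the median change was 1.96 in the earlier interval and 0.43 in the later. Ighm measured 9.85, 8.48, 7.54, 12.52 and 8.37 at week 16, with 1 array at the week 24 level, and rose by 3.41 from week 16 to week 24 (adjusted p = 0.00727). Ms4a1 measured 6.99, 4.69, 4.70, 7.64 and 4.45 at week 16 and rose by 2.91 in the second interval (adjusted p = 0.00371), and Ighg3 rose by 2.44 (adjusted p = 0.000979). Before that, between weeks 8 and 16, Ighm changed by 0.25 (adjusted p = 0.804), Ms4a1 by -0.07 (adjusted p = 0.93) and Ighg3 by -0.38 (adjusted p = 0.452). Prg2, Slpi, Mzb1, Coch and 5530400C23Rik passed in both intervals; the mean of 5530400C23Rik was 9.64, 6.10 and 4.24 at the 3 ages.

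In the anti-CD40L arm, which shares no array with the control comparison, 3073 genes passed between weeks 8 and 24 (23.6%), 2148 higher (16.5%) and 925 lower (7.12%). That arm had smaller within-group SDs (0.216 and 0.159), but these did not enter its count separately, because the fit shared its spread across all groups. Its count fell to 632 with the 3' minus 5' covariate, and the control count fell from 1624 to 715. The order of the arms thus depended on the covariate, so 3073 against 1624 cannot be read as more change. The change over age was compared directly between the arms by an interaction term: 1 gene passed (0.00769%), and 759 had an unadjusted p under 0.05 (5.84%). That gene was Prg2. In the anti-CD40L arm it measured 3.75, 3.94, 3.98, 3.76 and 4.09 at week 8 and 4.52, 5.10, 5.62, 4.64 and 4.69 at week 24, a rise of 1.01 ± 0.22 (adjusted p = 0.00331), and the control change exceeded it by 1.84 ± 0.31 (adjusted p = 0.0302), a size that is not exact because both week 8 groups lie near the floor. No gene passed this difference with the replicate block (adjusted p of Prg2 0.0522), array weights (0.114), group weights, Amy1 above 11 (0.688), without the 5 arrays of lowest correlation (0.284) or with the stricter filter, which leaves out Prg2. None passed without week 8 replicate 1 or 5 or week 24 replicate 3 or 5 (adjusted p of Prg2 0.104, 0.0711, 0.0586 and 0.059).

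Among the other members, the IgA genes rose in both arms, and the change, not the level, was larger after anti-CD40L, from a lower start. Igha rose by 3.93 ± 0.27 and Jchain by 3.52 ± 0.34 there, from week 8 arrays of 8.22 to 9.32 and 6.72 to 7.45, which lay below the week 8 controls. The differences between the arms did not pass (-1.18 ± 0.38, adjusted p = 0.557, and -0.76 ± 0.48, adjusted p = 0.962). B cell genes had a median change of -0.11 in that arm and 0.92 in controls, T cell genes -0.23 and 0.58, and class II genes 0.44 and 1.46. For Ms4a1 the arms differed by 3.34 ± 0.83 (adjusted p = 0.272), for Cd79b by 2.33 ± 0.51 (adjusted p = 0.102), for Slpi by 1.97 ± 0.39 (adjusted p = 0.0791) and for Tnfrsf13b by 1.43 ± 0.29 (adjusted p = 0.0814). These miss the threshold, which does not show that the arms behaved alike.

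Smgc and 5530400C23Rik fell in both arms. Smgc fell by 0.92 ± 0.15 and 5530400C23Rik by 4.43 ± 0.48 after anti-CD40L (adjusted p = 0.000537 and 1.68e-06), and their differences from the control change were -0.23 ± 0.22 (adjusted p = 0.997) and -0.97 ± 0.68 (adjusted p = 0.972). Coch rose by 1.24 ± 0.14 there against 1.18 ± 0.14 in controls, with a difference of -0.07 ± 0.20. Cldn1 changed by 0.16 in the anti-CD40L arm (adjusted p = 0.735) against -1.01 in controls, and Krt15 by -0.20 (adjusted p = 0.478) against -0.68; neither difference between the arms passed (-1.17 ± 0.46, adjusted p = 0.679, and -0.48 ± 0.30, adjusted p = 0.962).

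**Figure D5:**
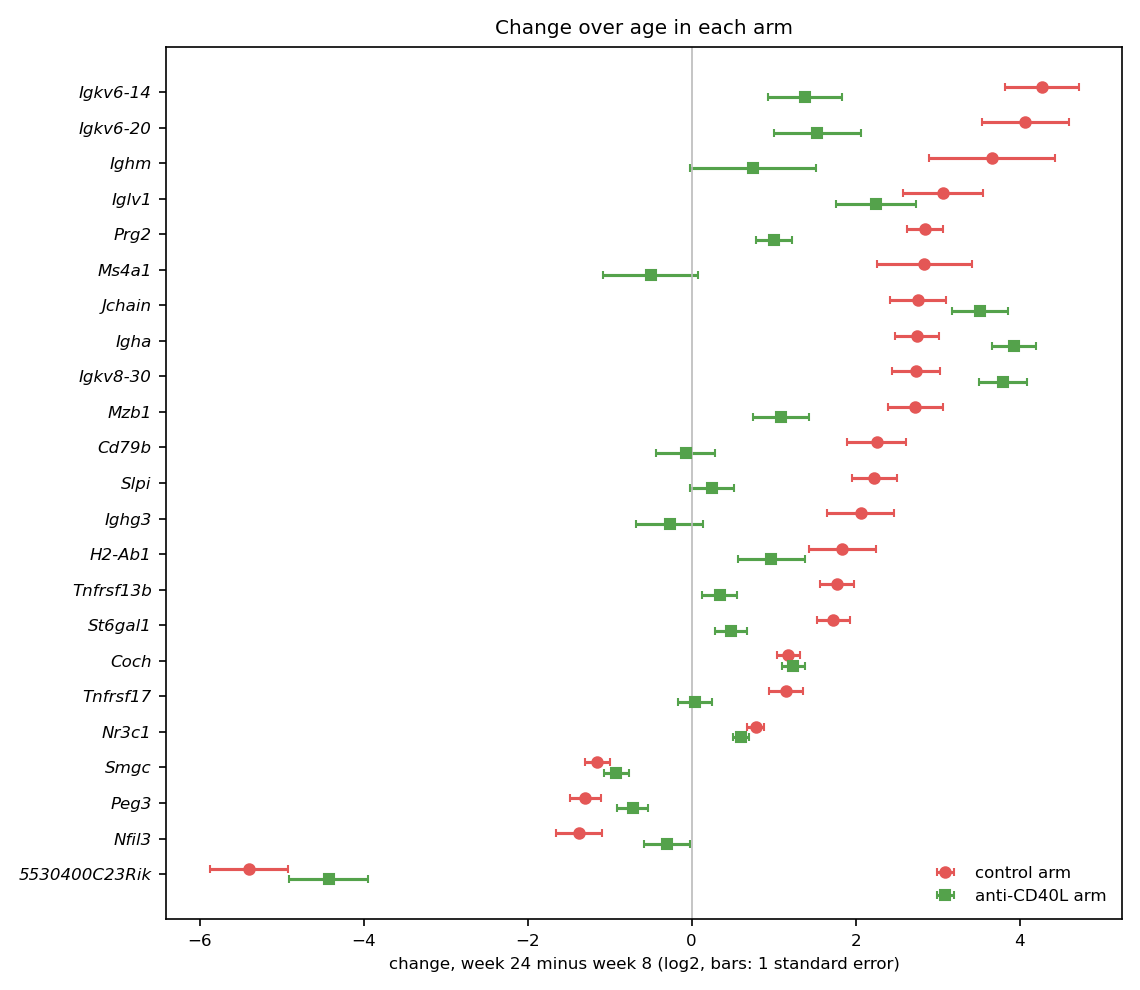
Change from week 8 to week 24 (log2, with 1 standard error) of 23 named genes in the control arm (circles) and in the anti-CD40L arm (squares), 5 arrays per group. Prg2 changed by 2.85 and 1.01, the only difference between arms that passed, while Smgc changed by -1.15 and -0.92 and Coch by 1.18 and 1.24.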

How the data were processed

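The table that the authors deposited holds 45101 probe sets by 30 arrays, and its values (2.757 to 14.457) were taken to be on a log2 scale. The steps by which the authors made these log2 values before they were deposited, probe summary and normalization included, were not given in the sources used here. The submitters' processing notes list limma and state no version. Array medians lay between 5.487 and 5.537. Arrays were loaded from 2 ug of RNA according to the labels. The number of arrays limits the precision. P-values measure the spread between arrays, whose origin in separate mice the labels do not state beyond the words biological replicate.

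Platform annotation gave 1 gene to 34945 probe sets, several to 932 and none here to 9224. Array control probe sets (64) were left out. Of 18193 genes, each represented by its probe set of highest mean, 12998 were above their array's median in at least 5 arrays and were tested. The 6 groups of 30 arrays entered a single limma fit (version 3.58.1, R 4.3.3), which was first tested on simulated data, and Benjamini-Hochberg adjustment ran over all genes tested. Quality measures were compared by exact permutation.

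Named genes are the 15 largest rises and falls among called genes, up to 4 called members of each list (up to 2 of a list without any), Cd40 and Cd40lg; other genes and array markers are named as such. Members and lists were chosen with earlier results of these data known. Some kappa variable genes chosen by this rule are left unnamed but are kept in counts.

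Alternatives were the 10 arrays alone, quantile normalization, median centring, no filter and one at the 70th percentile, the median over probe sets, array weights, a trended robust prior, the replicate number as a block, 3' minus 5' difference or Amy1 as covariates, and each array left out. Added after seeing the data were the fit without the 5 arrays of lowest correlation, fits of arrays with Amy1 above or below 11, and group weights.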

Additional observations from a re-analysis of the deposited data

Results flagged for a closer look

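In groups of 5 arrays a single array was set against the rest by Dixon's test at its 95% critical value. Of 254 groups tested (named genes and quality measures at each age) 16 had such an array. Chance gives about 1 in 20, so this number is close to what chance alone would give.

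At week 24, 5 of these were replicate 1. It had the highest Arntl (6.03, the others 5.02 to 5.26) and the lowest Dbp (8.36, the others 10.94 to 11.41), clock genes whose transcripts peak at opposite times of day. Replicate 1 also had the lowest Lcn2 (4.61, the others 6.29 to 6.94), the lowest level of a kappa variable gene (8.93, the others 9.95 to 10.1) and the lowest median correlation with other arrays (0.935, the others 0.963 to 0.966). In week 24 replicate 2 Pvalb was at 7.46, the others at 5.94 to 6.35. Ccl8 in replicate 4 was at 8.65, the others at 10.56 to 10.98, and the stress-response phosphatase Dusp1 in replicate 5 at 10.5, the others at 7.76 to 7.98.

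Week 8 replicate 3 stood above its group in 4 genes. Iigp1 was at 9.14 (the others 5.56 to 6.33), H2-D1 at 12.52 (the others 11.91 to 12.08), Nr3c1 at 7.76 (the others 7.23 to 7.34) and Igkv6-14 at 4.88 (the others 3.96 to 4.09). Replicate 1 of that age was highest in Krt14 (8.67, the others 8.01 to 8.18) and Lcn2 (6.12, the others 5.11 to 5.34). Cldn1 was at 6.34 in replicate 4 (the others 7.44 to 7.57) and Cfp at 5.33 in replicate 5 (the others 5.92 to 6.06).

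The change of Prg2 over age exceeded that in anti-CD40L mice by 1.84 on the log2 scale (limma interaction term; the size is not exact, since week 8 values lie near the floor), the only gene of 12998 that passed an adjusted p of 0.05. It missed that threshold with the replicate block, array weights, group weights, Amy1 above 11, without the 5 arrays of lowest correlation, and without week 8 replicate 1 or 5 or week 24 replicate 3 or 5 (adjusted p 0.0522 to 1.0), and the stricter filter leaves it out.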

How the results depend on the processing

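Of 108 named genes that passed, 15 kept their call under those of the 25 alternatives in which they passed the filter on low values: 5530400C23Rik, Igha, Igkv6-14, Igkv6-20, Igkv8-30, Iglv1, 2 further kappa genes, Jchain, Peg3, Prg2, Slpi, Smgc, St6gal1 and Tnfrsf13b. Slpi and St6gal1 among them were chosen after their values were seen. Higher and lower calls were 1103 and 521, against 33 and 8 in the 10 arrays alone, 83 and 30 with group weights, 434 and 281 with the 3' minus 5' covariate, 20 and 3 in arrays with Amy1 above 11 and 598 and 210 below 11. Lower calls were 978 after quantile normalization and 316 with array weights. Leaving out 1 array gave 445 (week 24 replicate 2) to 2167 (week 24 replicate 1) higher and 247 (week 8 replicate 4) to 1061 (week 24 replicate 1) lower; without week 8 replicate 1 or 4 there were 1948 and 831, or 521 and 247. Without week 24 replicate 2 or 4 lower calls were 276 and 320.

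The labels do not say that the replicate number pairs arrays. Between week 8 and week 24 arrays of the same number, deviations from the group mean correlated at -0.633, -0.075, -0.19, -0.142 and 0.272. For arrays of different number the correlations ran from -0.559 to 0.627, so this check cannot decide on pairing. With the replicate number as a block 984 genes were higher and 448 lower, and the count for the difference between arms was 0.

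In the anti-CD40L arm 3073 calls became 632 with the 3' minus 5' covariate, 1411 with Amy1 as covariate, 88 with Amy1 above 11 and 1109 without the 5 arrays of lowest correlation. The difference between arms (1) gave 0 with the stricter filter (which Prg2 does not pass), array weights, group weights, Amy1 above 11 and without those 5 arrays, 3 with the median over probe sets, 2 with Amy1 as covariate and 0 to 9 without 1 array. It was 0 without week 8 replicate 1 or 5 or week 24 replicate 3 or 5, 2 without week 8 replicate 2 or 4 or week 24 replicate 2, and 9 without week 24 replicate 4. Calls from week 8 to 16 (6046) were 619 with the 3' minus 5' covariate, 2869 with Amy1 above 11 and 2073 below 11, and those from week 16 to 24 (1609) were 717, 2 with Amy1 above 11 and 2566 with array weights.

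Signs turned for Bpifb1 (0.50 with the 3' minus 5' covariate, 0.40 with Amy1 above 11), Chia1 (1.11, 0.10, and 0.22 with Amy1 as covariate), S1pr2 (0.06 with the 3' minus 5' covariate) and Cd40 (0.23 with the median over probe sets, 0.15 with the 3' minus 5' covariate, 0.15 with Amy1 below 11). Without 1 array Cd40 ranged from -0.13 to 0.05 and Alas2 from -0.26 to 0.01. The median over probe sets gave 0.07 for Cdc20, -0.28 for Cxcl12, 0.15 for Egfr and -0.45 for H2-D1. The cause was not tested. Low signal limits genes near the floor of the arrays.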
